A study of Homo sapiens with 10 samples.

Results

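The rocaglates silvestrol and CR-1-31-B were taken as 1 class of compounds and their 6 libraries were set against the 3 vehicle (DMSO) libraries of the same series. The members were taken by label, with earlier results of these data known. They are every library labelled silvestrol (3) or CR-1-31-B (3), which is 6 of the 10 libraries of the series. The others are 3 DMSO libraries and 1 input library. All groups were HEK 293T cells, an established human embryonic kidney line, carrying FLAG-tagged eIF4A. Cells received vehicle, 20 nM silvestrol or 20 nM CR-1-31-B for 1 h. Ultraviolet light (254 nm, 400 mJ/cm2) then fixed RNA to the proteins touching it, and an anti-FLAG antibody pulled down the tagged protein with its RNA for sequencing, a protocol known as eCLIP. The input library skipped the antibody step. The labels name neither the eIF4A paralog that carries the tag nor how the tag was introduced. Dose and time were the same for both compounds, and the labels give no structure for either.

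eIF4A is an ATP-dependent RNA helicase of the DEAD-box family and part of eIF4F, the complex that binds the mRNA cap and prepares the 5' leader for the scanning 43S ribosomal complex. It normally releases RNA as it cycles through ATP. Silvestrol is a natural product of Aglaia plants and CR-1-31-B a synthetic rocaglate. Compounds of this class are known to hold eIF4A on RNA, with a preference for stretches of purines (A and G), which can block scanning and takes the helicase out of circulation.

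Leader sequences are shown first, because the known preference of rocaglates concerns runs of A and G. They are the 6 called leaders with the lowest p for the class and, for contrast, the 6 leaders with the lowest p on the lower side, none of which was called without the block described below. Each line shows the 30 bases around the longest A and G run of the gene's leader, 5′ to 3′ on the transcript strand, with that run in capitals. Sequences come from GENCODE v29 on GRCh38, and these coordinates belong to that annotation, since the build behind the counts was not given in the sources used here.
FLNC: cggccctGGAGGGAGAGAGAGccagagagc
CCND1: ctccccagctgcccAGGAAGAGccccagcc
PAFAH1B1: gcGAGAAGGAGAAGGAGGGGAGcgctcggg
POU3F2: GAGAAGGAGGGAGAGGAGGAGAAAGAGAGc
PCDH9: gcatactGGGAAAGGGGAAAGGttgaggca
PPP2CA: tcagcgagcGGAGGAGGAGGcgcagcggcc
CHCHD10: cggaggacGGGAGAAGGGGGAtagggttgg
RPL5: ccctagcgccgctGGGcctgcaggtctctg
RPL39: cttccgccAGcttccctcctcttcctttct
TUBA1B: tcttagcttgtcGGGGAcggtaaccgggac
GLTP: cggcggcggccGGGGGGGcggtgtcgacgc
CDK5RAP3: tctccagcctgaagcggaagtGGAGGAAAG
The first 6 lines are the leaders that rose and the last 6 those of the lower side. With their strands, the windows of the first lie at chr7:128830426-128830455 (+, FLNC), chr11:69641284-69641313 (+, CCND1), chr17:2593746-2593775 (+, PAFAH1B1), chr6:98834636-98834665 (+, POU3F2), chr13:67229786-67229815 (−, PCDH9) and chr5:134226021-134226050 (−, PPP2CA). Those of the others lie at chr22:23768029-23768058 (−, CHCHD10), chr1:92832052-92832081 (+, RPL5), chrX:119791614-119791643 (−, RPL39), chr12:49131346-49131375 (−, TUBA1B), chr12:109880418-109880447 (−, GLTP) and chr17:47971117-47971146 (+, CDK5RAP3). All 12 windows are exonic and within the 5' untranslated region. In bases, the longest run of the leaders that rose measured 14 in FLNC, 8 in CCND1, 20 in PAFAH1B1, 29 in POU3F2, 15 in PCDH9 and 11 in PPP2CA, and on the lower side 13 in CHCHD10, 3 in RPL5, 2 in RPL39, 5 in TUBA1B, 7 in GLTP and 9 in CDK5RAP3. Run lengths of the 2 sides overlap, and CHCHD10, the lower-side leader with the lowest p, has a run of 13 bases. In the order shown, the whole leaders measured 212, 227, 451, 282, 174 and 281 bases in the first 6. Those of the lower side measured 569, 75, 67, 95, 114 and 106 bases. The 2 sides were not matched for leader length, and longer leaders hold longer runs, so this contrast cannot tell run from length.

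The files give counts for each gene symbol split into 7 kinds of RNA or transcript part, among them the 5' leader, the coding sequence (CDS) and the 3'UTR, and a symbol with its part is called a feature here. The rocaglate libraries held 858733 to 1804732 counts and the DMSO libraries 943310 to 1074588. Of the features, 24713 had enough counts to be tested, among them 7122 leaders, 8413 CDS and 6712 3'UTRs. Levels are given as CPM, counts relative to the scaled library total, and a feature is called where edgeR's quasi-likelihood test gave a Benjamini-Hochberg adjusted p under 0.05 over all features. CPM are relative, and abundance of each RNA under each treatment was not measured, so more tagged eIF4A on an RNA and more of that RNA cannot be told apart. The labels do not say whether libraries came from separate cultures, so p-values measure only the spread between these libraries. Markers of blood, liver, squamous epithelium, fibroblasts and muscle were all listed (13 genes, 1 of them at 0 throughout), with a summed level of 32.7 to 92.1 CPM in DMSO and 13.9 to 73.4 CPM with rocaglates. The highest was COL1A1, a fibroblast marker, at up to 72.6 CPM.

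The main fit did not pair libraries by the number in their labels. With both compounds as 1 class, 119 features rose and 2 fell, and 99 of those that rose were 5' leaders. Of the others, 19 were CDS and 1 was the CNIH3 transcript, which went from 19.6, 20.2 and 22.9 CPM in DMSO to 95.6 to 391.8 CPM with rocaglates. The background is 0.482% of features called higher and 0.00809% called lower. Among leaders 1.39% were called, among CDS 0.226%, and among the 6712 3'UTRs 0 were called higher. Called leaders had a median log2 fold change of 2.08, with a median of 22.1 CPM in DMSO and 95.4 CPM with rocaglates. In DMSO they were thus close to the median of all tested leaders, 18.4 CPM, and in the input library both medians were 4.56 CPM. All leaders tested had a median log2 fold change of 0.36, with 69.8% above 0, against −0.09 for CDS and −0.27 for 3'UTRs. Features entered the test by their counts in these same libraries, so one low in DMSO could enter through the rocaglate libraries alone. What that filter adds to these medians was not tested class by class.

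Leaders of cytoskeletal and cell cycle genes were among the 12 with the lowest p. The leader of FLNC, which encodes the actin crosslinker filamin C, stood at 11.7, 14.9 and 10.3 CPM in the DMSO libraries, at 125, 126 and 136 CPM with silvestrol and at 62.8, 103 and 49.8 CPM with CR-1-31-B. The log2 fold change for both rocaglates was 2.96 (SE 0.39, edgeR adjusted p = 0.00274), and the lowest rocaglate library lay far above the highest DMSO library. The leader of CCND1, which encodes the G1 cyclin D1, stood at 5.87, 14.9 and 9.16 CPM in DMSO, 80.7, 81.9 and 81.5 with silvestrol and 68.8, 70.9 and 52.1 with CR-1-31-B (log2 2.85, SE 0.41, adjusted p = 0.00319). Its groups did not overlap, and the silvestrol libraries differed by little from each other. PAFAH1B1 (LIS1) encodes a regulator of the dynein motor. Its leader held 82.2, 90.2 and 96.2 CPM in DMSO, 492, 397 and 414 with silvestrol and 378, 547 and 290 with CR-1-31-B (log2 2.23, SE 0.32, adjusted p = 0.00319).

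The largest fold among these 12 was that of POU3F2, a POU-domain transcription factor of neural cells. Its leader was at 4.89, 1.06 and 4.58 CPM in DMSO, 75.9, 86.4 and 67.5 with silvestrol and 50.9, 93.4 and 12.7 with CR-1-31-B (log2 4.13, SE 0.62, adjusted p = 0.00437). All 6 rocaglate libraries were above DMSO, with CR-1-31-B library 3 well below the other 5. PCDH9 encodes a protocadherin of cell adhesion. Its leader was at 20.6, 29.7 and 13.7 CPM in DMSO, 209, 182 and 321 with silvestrol and 86.0, 179 and 46.3 with CR-1-31-B (log2 2.87, adjusted p = 0.00523). CR-1-31-B library 3 was again the lowest of the 6.

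Leaders of 2 protein phosphatase catalytic subunits rose, PPP2CA (2A) by a log2 of 2.31 and PPP4C (phosphatase 4) by 2.02. PPP2CA went from 45.6 to 57.2 CPM over the DMSO libraries to 133 to 363 CPM over the rocaglate libraries. RPL18, a protein of the large ribosomal subunit, had a log2 of 2.42 and the RNA-binding protein YBX1 one of 2.41. YBX1 held 153, 109 and 132 CPM in DMSO, 1133, 292 and 933 with silvestrol and 738, 569 and 560 with CR-1-31-B. SNRNP25 (minor spliceosome, log2 2.57), CHAF1A (chromatin assembly, 2.21) and FZR1 (the APC/C activator CDH1, 2.55) complete the 12. In each of the 12 all 6 rocaglate libraries lay above all 3 DMSO libraries. The 12 were chosen by their p in these same libraries, so this adds no support.

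**Figure D1:**
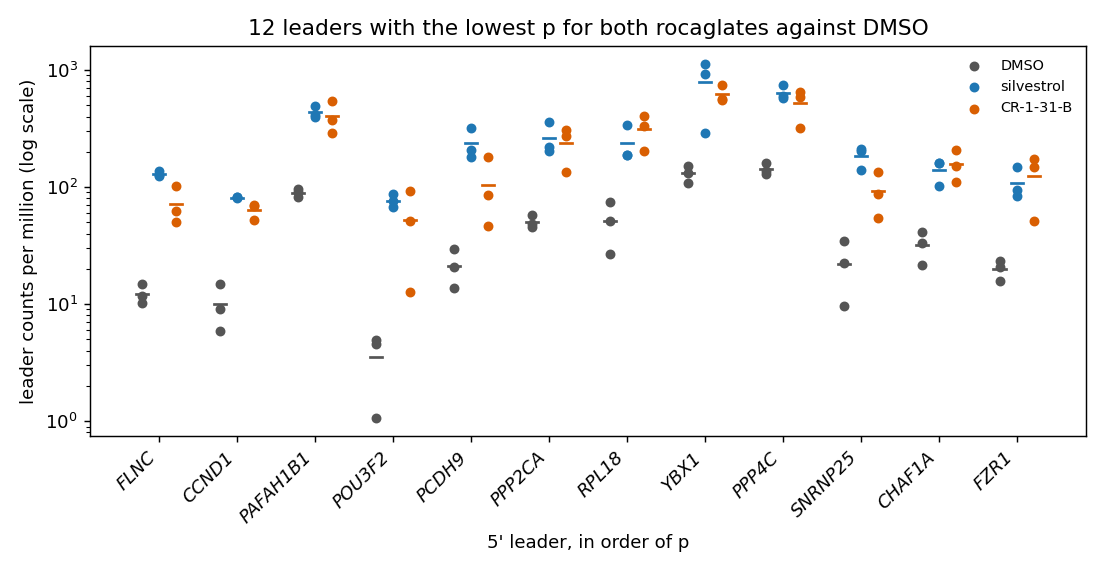
CPM (log axis) of the 12 leaders with the lowest p, each point 1 library and each short line a group mean of 3 libraries (grey DMSO, blue silvestrol, orange CR-1-31-B). In all 12 the 6 rocaglate points lie above the 3 DMSO points, and POU3F2 shows the widest gap between group means. The leaders were chosen by p in these same libraries, which favours such gaps.

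Outside the 12, the leader of the oncogene MYC rose by a log2 of 1.85 (adjusted p = 0.00638), with 141, 109 and 98.5 CPM in DMSO, 486, 475 and 341 with silvestrol and 419, 486 and 314 with CR-1-31-B. Other called leaders belong to the nuclear proteins HMGB1 (1.96), SET (1.53), ANP32A (1.79) and CHD4 (1.79). SET, a phosphatase inhibitor and histone chaperone, was at 699 to 969 CPM in DMSO and 1513 to 3489 CPM with rocaglates. SON, a splicing cofactor, was at 0, 0 and 1.14 CPM in DMSO and at 4.55 to 53.6 CPM with rocaglates. The leader of PSMC4, an ATPase subunit of the proteasome, had no count in any DMSO library and 108 counts over the 6 rocaglate libraries. Against a floor of 3 counts over the DMSO group it was at least 14.9-fold higher. These low leaders rest on few counts, and limma voom called neither SON (adjusted p = 0.413) nor PSMC4 (0.371), nor POU3F2 (0.319). Of all 121 calls limma voom kept 75.

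The 19 CDS that rose were led by RPL41, ZNF263, LZTS2, EID1 and PPP1R14B. RPL41 encodes a very short ribosomal protein, and its CDS went from 181, 86.0 and 108 CPM in DMSO to 1107, 330 and 934 with silvestrol and 656, 481 and 649 with CR-1-31-B (log2 2.46, adjusted p = 0.00561). RPL41 is 1 of 2 genes with 2 calls, since its leader rose too (1.91, adjusted p = 0.0165). ZNF263, a zinc finger transcription factor, went from 17.6 to 19.1 CPM in DMSO to 35.7 to 262 CPM (log2 2.40), LZTS2 had a log2 of 2.06, EID1 of 2.20 and PPP1R14B, an inhibitor of protein phosphatase 1, of 1.92. Called CDS spanned log2 fold changes of 1.40 to 2.70.

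Both features that fell had very high or moderately high levels in DMSO. The 3'UTR of HINT3, which encodes a histidine triad protein, held 27688, 61907 and 43277 CPM in DMSO, 20126, 27029 and 14990 with silvestrol and 17134, 14912 and 6978 with CR-1-31-B. It fell by 1.43 on the log2 scale (adjusted p = 0.0436), with all 6 rocaglate libraries below all DMSO libraries, while the leader of the same gene rose by 2.69 (adjusted p = 0.0416). The HINT3 leader was small, at 3.18 to 5.87 CPM in DMSO and 12.7 to 59.1 CPM with rocaglates, and limma voom did not call it (adjusted p = 0.391). The KRT32 transcript fell by 1.31 (adjusted p = 0.0479), from 1177, 1214 and 1214 CPM in DMSO to 996, 467 and 459 with silvestrol and 474, 312 and 305 with CR-1-31-B. In the input library the HINT3 3'UTR held 268 CPM and the KRT32 transcript 14.1 CPM.

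A count without any model was less one-sided than the calls. All 6 rocaglate libraries lay above all 3 DMSO libraries in 868 features, which is 3.51% of those tested, and 598 of them were leaders and 221 CDS (8.40% of leaders against 2.63% of CDS). All 6 lay below DMSO in 593 features, or 2.4%, of which 246 were CDS, 243 3'UTRs and 57 leaders. Features low in DMSO could enter the test through the rocaglate libraries alone, and what that adds to these counts was not tested. Of the 119 features that rose by the edgeR test, 113 had all 6 libraries above DMSO and the other 6 had 5. The 119 were chosen by a test on these same libraries, so this count adds no support.

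The number of calls depended on single libraries. Leaving out DMSO library 1, 2 or 3 gave 27, 15 and 7 calls, with 24, 13 and 7 of the 121 among them. Leaving out silvestrol library 1, 2 or 3 gave 44, 209 and 80 calls (42, 117 and 76 of the 121). For CR-1-31-B library 1, 2 or 3 the calls were 44, 45 and 287 (43, 45 and 121 of the 121). The leaders of FLNC, CCND1, PAFAH1B1 and POU3F2 and the CNIH3 transcript were called in all 9 of these fits, with adjusted p up to 0.0479, PCDH9 and SNRNP25 in 8, and the other 6 of the 12 leaders and MYC in 7. The HINT3 3'UTR and the KRT32 transcript were each called in 3. With the library number as a block 505 features were called, 469 higher (1.9% of those tested) and 36 lower (0.146%), and all 121 calls were among them. Leaders made up 383 of the 469, which is 5.38% of leaders.

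The blocked fit added falls that the fit without it did not call. They included the CDS of 5 of 30 tested proteins of the small ribosomal subunit (RPS23, RPS15A, RPS13 and RACK1 among them), of 3 of 34 chaperones (HSPA8, HSPD1 and DNAJA1), of the elongation factor EEF1A1 and of the glycolytic enzyme ENO1. Of all CDS 0.226% fell in that fit. HSPA8, the constitutive HSP70, had a mean CDS level of 369.9 CPM in DMSO, against means of 163 (silvestrol) and 169 CPM (CR-1-31-B). Its log2 was −1.09 with the block (adjusted p = 0.00747) and −1.15 without it (adjusted p = 0.0991). Among 6 leaders that fell in that fit were those of RPL5 (log2 −1.10, adjusted p = 0.00596) and RPL39 (−1.23, adjusted p = 0.0267), both among the sequences shown, and the α-tubulin gene TUBA1B (−1.03, adjusted p = 0.00969). HMGB1, whose leader rose, had a 3'UTR that fell in that fit (−1.44, adjusted p = 0.0259; 0.272 without the block). Of the 36 lower features 19 were CDS, 8 3'UTRs, 6 leaders, 2 ncRNAs and 1 a transcript.

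The compounds were then compared row by row. Tested on its own against DMSO, silvestrol had 63 calls (0.255% of features) and CR-1-31-B had 72 (0.291%). The 2 tests share the 3 DMSO libraries, so their calls are not independent. In both lists stood 35 features, which is 55.6% of the silvestrol calls and 48.6% of the CR-1-31-B calls. Of the 121 calls for the class, these 35 were called for each compound, 24 for silvestrol only, 29 for CR-1-31-B only and 33 for neither alone. Among these 33 were 25 leaders, 7 CDS and the HINT3 3'UTR, with the leaders of the initiation factor EIF5B (adjusted p = 0.0303 for the class, 0.0563 for silvestrol, 0.0531 for CR-1-31-B) and of JUNB (0.0416, 0.0824 and 0.0554). Calls of 1 compound that the class test did not make numbered 4 for silvestrol (the leaders of PDCD4, HSBP1, HDDC2 and RPS15, named because the count is small) and 8 for CR-1-31-B.

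For many class calls the folds of the compounds could hardly be separated. The smallest differences were those of the CHD4 leader (log2 1.79 with each compound, 95% interval of the difference −0.75 to 0.74), the TACC1 leader (1.89 and 1.90, interval −0.88 to 0.90) and the MFHAS1 leader (2.47 and 2.47, interval −0.83 to 0.81). The HOXD13 CDS (1.44 and 1.45, interval −0.68 to 0.70) and the leader of the ferritin gene FTH1 (1.36 and 1.35, interval −0.68 to 0.66) came next. Of leaders described above, PAFAH1B1 had a difference of −0.10 (interval −0.78 to 0.58) and MYC of −0.10 (interval −0.77 to 0.58). In 26 of the 121 calls the interval of the difference lay within 2-fold in both directions. In the other 95 it reached past 2-fold, so a difference of that size between the compounds could not be set aside. The median width of the interval was 1.65 on the log2 scale.

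Tested directly, CR-1-31-B against silvestrol gave 0 calls by edgeR, DESeq2 and limma voom, with 609 features (2.46%) at an unadjusted p under 0.05. On simulated counts with known changes, the edgeR form of this contrast recovered 2 of 100 changes of 2-fold and 45 of 100 of 4-fold. So 0 calls does not show that the compounds act alike. This contrast uses no DMSO library, and it was the 1 pair of compounds there was to compare. With the library number as a block 1 feature was called, the JUN leader. JUN encodes a subunit of the AP-1 transcription factor, and its leader stood at 372, 641 and 236 CPM in DMSO, 920, 1152 and 469 with silvestrol and 1944, 4947 and 2250.2 with CR-1-31-B. Silvestrol library 3 fell within the DMSO range, while every CR-1-31-B library was above every silvestrol library. The log2 difference was 1.85 (95% interval 0.95 to 2.75, unadjusted p = 0.00031, not called), and 1.82 with the block (adjusted p = 0.00292). JUN was called for the class (log2 1.95, adjusted p = 0.0316) with 1.03 for silvestrol (adjusted p = 0.497) and 2.87 for CR-1-31-B (adjusted p = 0.00889).

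In 14 of the 121 class calls the unadjusted 95% interval of the difference left out 0, 8 of them higher with CR-1-31-B and 6 with silvestrol. Of these only JUN was called in the fit with the block. Higher with CR-1-31-B were the leaders of JUN, IER2, RBSN and DFFA and the CDS of USP39, ZNF263, PPP1R14B and KLHL11. IER2, another immediate early gene, had a difference of 1.45 (interval 0.44 to 2.46), and USP39, a splicing factor, one of 1.26 (0.52 to 2.00) between 59.1 to 86.7 CPM with silvestrol and 149 to 222 CPM with CR-1-31-B. Higher with silvestrol were the leaders of CTNND1, PCDH9, SYNCRIP, SNRNP25 and FLNC and the KRT32 transcript. CTNND1, which encodes p120 catenin, was at 11.7, 21.2 and 5.72 CPM in DMSO, 88.5, 69.4 and 102 with silvestrol and 31.7, 29.4 and 25.5 with CR-1-31-B. Its difference was −1.58 (interval −2.47 to −0.68), and the 3 groups did not overlap.

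Features outside the class calls also stood among the 5 lowest p in each direction of the direct test, and none was called. The HDDC2 leader was at 153, 102 and 161 CPM with silvestrol and 52.2, 44.1 and 22 with CR-1-31-B (difference −1.79, interval −2.62 to −0.97), against 20.6 to 38.9 CPM in DMSO. The NDUFB8 leader, of a respiratory complex I subunit, was at 52.3 to 62.6 CPM with silvestrol and 9.51 to 18.5 with CR-1-31-B (−2.12). The TBCC CDS, of a tubulin folding cofactor, was at 8.92 to 17.5 CPM with silvestrol and 37.0 to 63.1 with CR-1-31-B (1.90, interval 0.84 to 2.96). The SIAE 3'UTR (−2.29), the CHCHD6 CDS (2.09) and the MREG 3'UTR (4.32, with 0 counts in 2 silvestrol libraries) were also among them, as were JUN, USP39 and CTNND1.

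By transcript part, the 2 compounds compared as follows. Among called leaders 58 had the higher mean with silvestrol and 41 with CR-1-31-B, while among called CDS 4 had it with silvestrol and 15 with CR-1-31-B. Median folds of called leaders were 2.06 with silvestrol and 2.07 with CR-1-31-B, and of called CDS 1.71 and 2.23. Features were called by the mean of both folds, and the folds share the DMSO libraries. The close medians of called leaders therefore add no support for agreement of the compounds. Over all features tested, CR-1-31-B lay above silvestrol in 46.3% of leaders (median difference −0.05) and in 58.4% of CDS (median difference 0.11). As shares of all counts, CDS held 30.4% ± 2.71 with silvestrol and 33.2% ± 1.38 with CR-1-31-B (SD, n = 3 libraries each), 2.74 points apart (95% interval −2.13 to 7.61, exact permutation p = 0.2). Leaders held 30.8% ± 3.16 and 30.2% ± 6.49 (n = 3 each), −0.69 points apart (interval −12.3 to 10.9, exact permutation p = 0.9, two-sided; 3 against 3 cannot go below 0.1). CR-1-31-B library 3 had the lowest leader share of the 6, 22.8%, which lies within the DMSO range (23.4%, 24.1% and 20.7%). The other 5 rocaglate libraries held 28.5% to 35.0%. The leader difference turned to 1.11 points on leaving out silvestrol library 1 and to 3.0 points on leaving out that library.

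**Figure D2:**
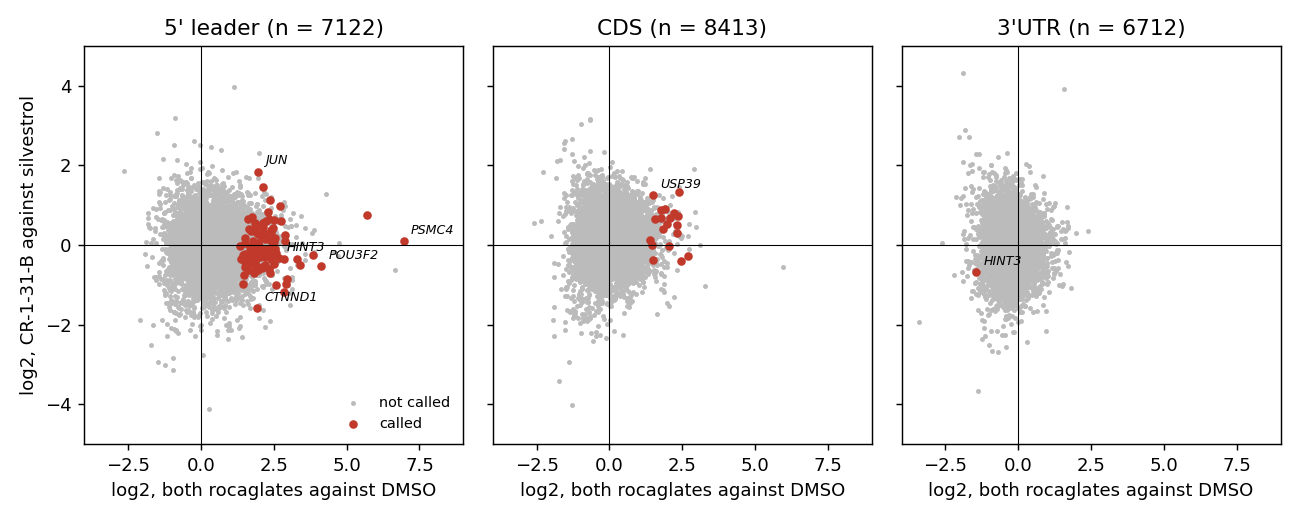
Log2 fold change of both rocaglates against DMSO (x axis) and log2 difference of CR-1-31-B against silvestrol (y axis) for each tested feature, in 3 panels for leaders, CDS and 3'UTRs, with called features of the class in red. The 99 called leaders spread on both sides of the horizontal line (JUN above, CTNND1 below), 15 of the 19 called CDS lie above it, and the 1 called 3'UTR is that of HINT3.

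Folds were also compared between compounds so that no library was shared, each silvestrol library over 1 DMSO library against each CR-1-31-B library over another. Over the 1434 leaders with a mean of at least 50 CPM, Pearson's r across genes ranged from 0.33 to 0.58 in the 6 such pairs (median 0.49). For 1738 CDS it ranged from 0.23 to 0.51 and for 833 3'UTRs from −0.03 to 0.28. These are descriptions across genes, which are not independent, and the libraries of a number may share a batch.

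Because abundance was not measured, leader and CDS of the same gene were set against each other within each library. In 5537 genes with both parts tested the leader gained over the CDS by a median log2 of 0.45, with 71.0% of genes above 0. Both parts had passed the filter on counts in these libraries, and what it adds to this median was not tested. The leader rose against its CDS in 90 genes, or 1.63%, and fell in 2. In 81 of the 90 the ratio was above DMSO in all 6 rocaglate libraries. The 90 were chosen by this ratio, so this count adds no support, and the share over all 5537 genes was not taken. The CDS fold of the 90 was below 0 in 74, with a median of −0.43, and the leader median was 1.63. Choosing genes by leader over CDS favours low CDS folds, and of all tested CDS only 43.3% had a fold above 0. Of the 90, 31 also had the leader called by itself and 59 did not.

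YBX1 led this list. Its leader held 131 ± 21.7 CPM in DMSO (SD, n = 3) and 704 ± 299 CPM with rocaglates (n = 6), while its CDS held 202, 155 and 358 CPM in DMSO, 369, 107 and 418 with silvestrol and 236, 194 and 217 with CR-1-31-B. The leader thus gained 2.25 on the log2 scale over the CDS (SE 0.29, adjusted p = 0.000435), and the CDS groups overlapped. FLNC gained 3.57 (SE 0.48, adjusted p = 0.000435), with a CDS of 109 ± 29.5 CPM in DMSO and 70.6 ± 17.9 with rocaglates. NONO, a paraspeckle protein, gained 2.15, RPL18 2.28, PAFAH1B1 3.0 and SON 5.55. GNB1 (a G protein β subunit, 2.02), SNRPB (a core spliceosomal protein, 1.90), the Wnt effector CTNNB1 (2.09) and the glycolytic enzyme ENO1 (1.86) had leaders that were not called alone. In CTNNB1 the leader was at 165 ± 55.6 CPM in DMSO and 347 ± 123 with rocaglates (not called), and the CDS at 176, 116 and 114 CPM in DMSO and 53.6 to 78.5 with rocaglates. The CTNNB1 CDS log2 was −1.06 (adjusted p = 0.112), and it was called lower with the block (adjusted p = 0.0260).

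The 2 genes in which the leader fell against the CDS were VHL, an E3 ligase subunit of oxygen sensing (−1.96), and PABPN1, the nuclear poly(A)-binding protein (−1.79). In VHL the mean CDS level was 55.9 CPM in DMSO, against means of 134 CPM (silvestrol) and 165 CPM (CR-1-31-B), and the leader means were 43.2, 30.4 and 25 in that order, with neither part called alone. With the block the VHL CDS was called higher (log2 1.46, adjusted p = 0.0160). CR-1-31-B against silvestrol gave 0 calls in this test and 197 genes at an unadjusted p under 0.05. The count of 90 was 14, 34 and 13 on leaving out DMSO library 1, 2 or 3, 34 on leaving out silvestrol library 1, 33, 48 and 136 on leaving out CR-1-31-B library 1, 2 or 3, 147 with the block and 245 with limma voom. YBX1, FLNC, NONO, RPL18, PAFAH1B1, SON and GNB1 were called in all 9 fits without 1 library, VHL in 2 and PABPN1 in 1. VHL held without silvestrol library 2 or CR-1-31-B library 3, and PABPN1 without silvestrol library 2.

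**Figure D3:**
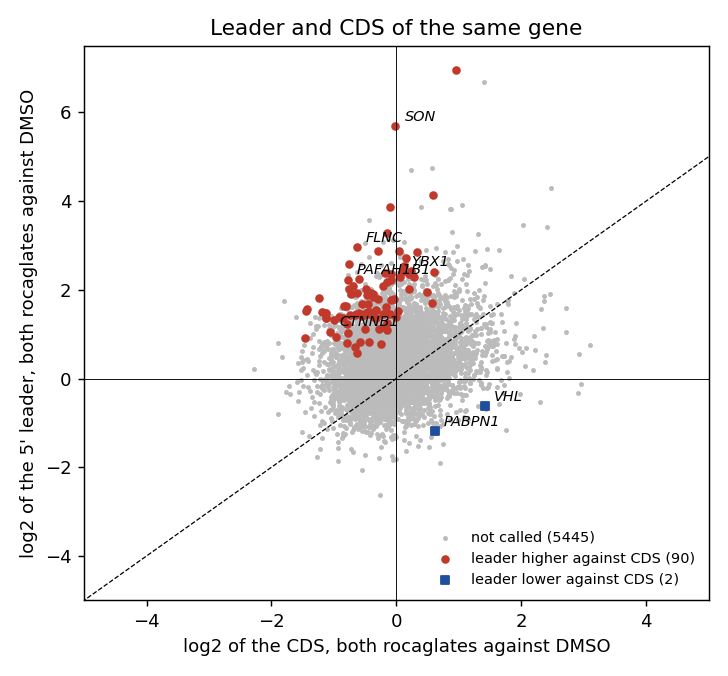
Log2 fold change of the 5' leader (y axis) against that of the CDS of the same gene (x axis) for 5537 genes, both rocaglates against DMSO; the dashed line marks equal folds. The 90 genes whose leader rose against the CDS (red) lie above the line, 74 of them left of 0 on the x axis, and VHL and PABPN1 (blue squares) lie below it. Choosing genes by leader over CDS favours the left side.

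Gene lists describe what the called leaders encode, against 1.39% of all leaders called (5.38% with the block) and a median of 0.36. Of 14 leaders of eIF4F and its cofactors 3 rose, with a median of 0.81. They were PAIP1 (log2 1.62) and PAIP2 (1.52), which bind the poly(A)-binding protein, and EIF4EBP1 (2.54), an eIF4E inhibitor, so none encodes a subunit of eIF4F. EIF4EBP1 went from 8.81, 6.37 and 6.87 CPM in DMSO to 11.6 to 63.2 CPM. Of the 9 fits without 1 library, PAIP1 and EIF4EBP1 were called in 3 each and PAIP2 in 2. Limma voom called PAIP1 and PAIP2 but not EIF4EBP1 (adjusted p = 0.279). The EIF4G1 leader (scaffold of eIF4F) had a log2 of 0.49 and that of PABPC1 0.12, both not called. Among 22 other initiation factors EIF5B, the subunit-joining GTPase, rose (2.00), and of 11 elongation and release factors 0 did (3 with the block; list medians 0.55 and 0.53). EIF4A1, a gene every dividing cell uses, was listed at 0 in every library, input included, so the files do not tell which paralog was tagged. The EIF4A2 CDS had a log2 of −0.29 (adjusted p = 0.846).

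Of 26 immediate early genes, a first wave of transcription after growth signals, 4 leaders rose: MYC, JUN, JUNB (2.89) and IER2 (2.14). Of the 9 fits without 1 library, MYC was called in 7, JUN in 4, and JUNB and IER2 in 2 each. Limma voom called MYC and JUN but not JUNB (adjusted p = 0.399) or IER2 (0.157). With the 6 rocaglate libraries as 1 group, edgeR called MYC and JUNB but not JUN (adjusted p = 0.0526) or IER2 (0.0552). The list median was 0.68, with 0.49 for silvestrol and 0.93 for CR-1-31-B. JUNB went from 2.94, 8.49 and 2.29 CPM in DMSO to 39.2, 25 and 35.7 with silvestrol and 23.8, 69.2 and 13.9 with CR-1-31-B. IER2 went from 13.7 to 17.0 CPM to 20.4 to 202 CPM. Other members varied widely within DMSO itself: EGR1 had 91.5 ± 140 CPM in DMSO (SD, n = 3) and 117 ± 146 with rocaglates (n = 6), and FOS 9.17 ± 15 and 25 ± 31.1. Neither was called.

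Of 23 tested leaders of mRNAs known as sensitive to eIF4A inhibition 2 rose, CCND1 and MYC, with a list median of 0.34. MCL1, an apoptosis inhibitor on that list, had 12.4 ± 4.96 CPM in DMSO and 13.3 ± 7.56 with rocaglates (log2 −0.05). Of 37 cyclins and cyclin-dependent kinases CCND1 and CDK5 (2.12) rose, and of 38 actin, tropomyosin and filamin genes FLNC, TPM3 (2.46) and the cofilin CFL2 (2.52) did, 10 with the block. Limma voom called CCND1, FLNC and TPM3 but not CDK5 (adjusted p = 0.1235) or CFL2 (0.3465). Of 20 POU, SOX and other developmental factors POU3F2 rose, with a list median of 0.72 and 17 of 20 above 0.

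Ribosomal protein leaders differed from most lists by their medians. Of 46 leaders of the large subunit RPL18, RPL41 and RPL24 (1.88) rose, but the median was −0.09 and 22 were above 0, and of 34 of the small subunit 0 rose (4 with the block), with a median of −0.05. Counts of these genes are uncertain where processed pseudogenes share their sequence. Of 29 proteasome leaders PSMC4 and PSMD1 (2.08) rose, of 33 chaperones DNAJB6 (1.88), of 33 hnRNP and SR proteins HNRNPD (1.70), of 16 DEAD-box helicases DDX6 (2.11) and of 19 glycolysis genes the glucose transporter SLC2A1 (2.32). Limma voom called DNAJB6, HNRNPD and DDX6 but not PSMC4, PSMD1 (adjusted p = 0.115) or SLC2A1 (0.176). No leader of the 14 mRNAs with upstream reading frames translated in stress was called, with a median of 0.18. In the CDS class the list medians were −0.53 over 20 glycolysis genes and −0.47 over 34 chaperones, against −0.09 for all CDS, with 0 called. The 19 small nuclear, 7SK, 7SL, vault and Y RNAs had a median of −0.22 and 0 calls. The lists overlap in MYC and CCND1, and without the block no leader of any list was called lower.

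**Figure D4:**
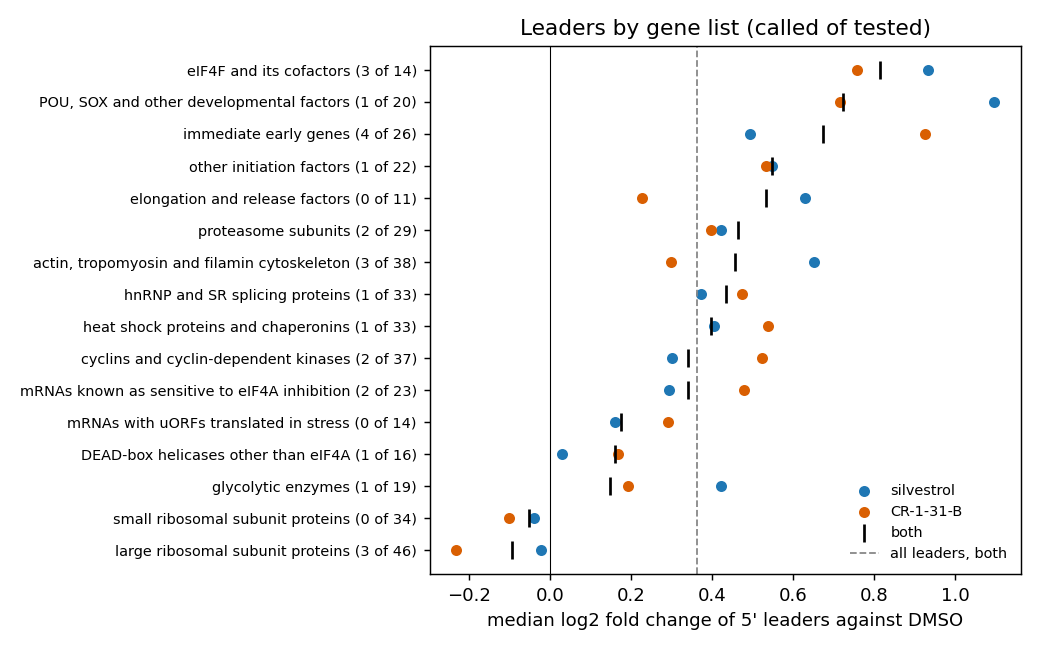
Median log2 fold change of the tested 5' leaders of 16 gene lists for silvestrol (blue), CR-1-31-B (orange) and both (black bar), with the number called of the number tested beside each name and the median of all leaders as a dashed line at 0.36. The eIF4F list has the highest median for both (0.81) and the ribosomal protein lists the lowest (−0.05 and −0.09).

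Called leaders held purine repeats more often than leaders at large. The motifs were chosen with earlier results of these data known, so this is a description and no independent support. AGAGAG or GAGAGA occurred in 33 of the 97 called leaders with a GENCODE v29 sequence (34.0%) and in 1161 of all 6989 tested leaders with one (16.6%). Of the sequences shown, the whole leaders of FLNC, PAFAH1B1, POU3F2, PPP2CA and, on the lower side, CHCHD10 hold the motif, and those of the other 7 do not. The complements TCTCTC or CTCTCT, searched in the same strand, occurred in 12.4% of called and 14.5% of all leaders, and CGGCGG in 49.5% and 41.1%. A run of 12 or more A and G, which overlaps the first motif, was present in 38.1% of called and 22.9% of all leaders. The share of leaders called higher was 0.754% where the longest run was up to 7 bases, 1.46% at 8 to 11, 2.19% at 12 to 15 and 2.52% at 16 or more. Longer leaders hold longer runs (median leader length 150 bases in the first group and 428 in the last), so length moves with this order. In 3 groups of near equal size by leader length, the median log2 of the shortest (up to 172 bases) was 0.81 with the motif and 0.30 without it. It was 0.64 and 0.38 in the middle group and 0.43 and 0.33 in the longest. Of the 57 leaders below DMSO in all 6 rocaglate libraries, 55 had a sequence and 6 of these held AGAGAG or GAGAGA (10.9%).

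The same feature was read per library as a share of leader counts. Leaders with AGAGAG or GAGAGA took 17.5%, 17.8% and 17.7% of leader counts in the DMSO libraries, 20.6%, 19.4% and 20.0% with silvestrol and 19.8%, 20.5% and 20.3% with CR-1-31-B. All 6 rocaglate libraries lay above all DMSO libraries, by 2.45 points on average, and the 2 compounds were 0.21 points apart. Leaders with a run of 12 or more A and G took 25% ± 0.97 in DMSO (SD, n = 3) and 28.0% ± 0.77 with rocaglates (n = 6), again with 6 of 6 above. Leaders with the complement took 16.5% ± 0.20 and 16.3% ± 0.58, with 1 of 6 above, and those with CGGCGG 45.9% ± 1.60 and 47.7% ± 1.13, with 4 of 6 above. The input library had 19.6% in leaders with AGAGAG or GAGAGA, above every DMSO library and inside the range of the rocaglate libraries. It had 24.5% in leaders with a run of 12 or more, 15.6% in those with the complement and 34.9% in those with CGGCGG. These shares are descriptions, and a motif match is not a binding site.

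**Figure D5:**
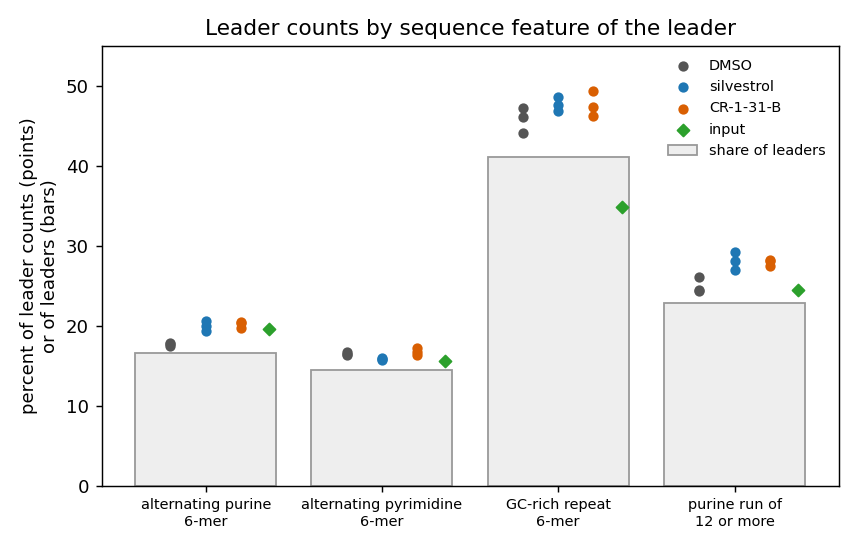
Percent of leader counts in leaders with each sequence feature, each point 1 library (grey DMSO, blue silvestrol, orange CR-1-31-B, green diamond input), with grey bars for the percent of tested leaders that hold the feature. For the purine 6-mer (AGAGAG or GAGAGA) the 6 rocaglate points (19.4% to 20.6%) lie above the DMSO points (17.5% to 17.8%), and for the pyrimidine 6-mer they do not.

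How much of a leader there was in the input library went with the size of the fold. Leaders were split into 4 groups of near equal size by input CPM. The median log2 fold change was 0.58 in the lowest group, 0.41 and 0.37 in the middle ones and 0.17 in the highest, and each compound had the same order (silvestrol 0.59 to 0.21, CR-1-31-B 0.58 to 0.13). Called leaders numbered 17, 29, 24 and 29 in these groups. Leaders entered the test by their counts in the anti-FLAG libraries, so a leader low in input could enter through the rocaglate libraries alone. What that filter adds to this order was not tested. The input was 1 library, so this order is a description.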

How the data were processed

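The authors deposited read counts per gene symbol and class, 1 file per library. The submitters' processing notes name cutadapt and Bowtie 1.1. For the build, annotation, duplicate handling, strand and counting rule, the entry is: not given in the sources used here. So counts of near-identical, overlapping or antisense genes are uncertain. No 2 libraries of a group repeated each other (chi-square per degree of freedom 3.97 to 9.07).

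The 9 anti-FLAG libraries were fitted together with edgeR 4.0.16 in R 4.3.3 (filterByExpr by group, library sizes over tested features, TMM, quasi-likelihood tests, Benjamini-Hochberg). The class contrast was the mean of both compounds minus DMSO. Leader against CDS used a term per library and part by compound terms. Intervals are 95% and pointwise. Steps were tested on simulated counts with 100 changes of 2-fold and 100 of 4-fold. The class contrast recovered 3 and 50 of them, and leader against CDS 2 and 19. DESeq2 1.42.0 and limma 3.58.1 served as alternatives.

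The labels number the libraries of each group 1 to 3. Deviations of log2 CPM (prior count 2) from group means correlated at 0.10 to 0.26 in the 9 same-number pairs and −0.20 to 0.02 in the other 18. At a prior count of 0.5 the weakest pair reached 0.09, so the check was a close one. Features with a count were 37428 to 39973 in the number 2 anti-FLAG libraries and 46898 to 50472 in the others. The numbers were therefore taken as pairs in the fits with the block and in the permutation within numbers. All other calls, including the 121 for the class, come from fits that leave the pairing out. The pairing rests on the counts, since no label says what a number marks.

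Named genes were those with the lowest p per class and direction (12 leaders, 5 CDS, 5 3'UTRs, 5 others), called members of 17 gene lists, the 5 lowest p each way between the compounds, the 10 lowest p of leader against CDS, and EIF4A1, EIF4A2, MYC, CCND1, JUN and POU3F2. Other called features named (such as SET, SON and CHD4), uncalled list members and those that fell only with the block were chosen after their values were seen. Members, lists and motifs were chosen with earlier results of these data known. Sequence features were planned on the 50 bases after the RefSeq start, but that table covered 55.9% of tested leaders, so that check is void and whole GENCODE v29 leaders (98.1% matched) were used. The floor for absent counts is 3 counts and covers counting error only. Some features that the naming rule covers are not reported here.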

Additional observations from a re-analysis of the deposited data

Results flagged for a closer look

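In 3 of the results examined, 1 of the 6 rocaglate libraries stood apart from the other 5, by the gap to its neighbour as a share of the range. CR-1-31-B library 2 was the highest for the CNIH3 transcript (391.8 CPM, next 177 CPM, share 0.727) and for the ZNF263 CDS (262 CPM, next 102 CPM, share 0.707). Silvestrol library 1 was the highest for the KRT32 transcript (996 CPM, next 474 CPM, share 0.755), the library closest to DMSO. Of the 40 results examined, about 1 in 20 would be marked by chance. CNIH3 was called in all 9 fits without 1 library, and ZNF263 in 6, lost without DMSO library 1, 2 or 3. KRT32 was called in 3 of these 9 fits, the one without silvestrol library 1 among them, and lost in the other 6 (edgeR adjusted p up to 0.229) and in the 2-group fit (0.0676).

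The JUN leader differed between the compounds in the fit with the library number as a block (log2 difference 1.82, edgeR adjusted p = 0.00292), with 3 of 3 CR-1-31-B libraries above all silvestrol libraries. Without the block it was not called.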

How the results depend on the processing

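Counts of calls for the class moved with the filter, the tool, the block and single libraries. Features called higher, 119 as reported, numbered 317 with no filter on low counts, 515 with DESeq2 and 469 with the replicate block, and 7 to 284 without 1 library; with RLE factors, library totals alone, a stricter filter, limma voom, 2 groups or library sizes over all features (the last added after seeing the data) they stayed between 102 and 156. Features called lower, 2 as reported, numbered 1 with the stricter filter, 18 with DESeq2, 4 with limma voom, 36 with the block, 1 in the 2-group fit, 1 with library sizes over all features, and 0 to 3 without 1 library. Calls between the compounds, 0 as reported, numbered 7 with no filter and 1 with the block. Genes whose leader rose against the CDS, 90 as reported, numbered 245 with limma voom, 147 with the block and 13 to 136 without 1 library, and those whose leader fell, 2 as reported, 12, 4 and 0 to 2. The median leader fold of 0.36 lay between 0.31 and 0.51 under the 16 alternatives run for it. The leader share difference between the compounds, −0.69 points, was −3.1 to 3.0 points without 1 library, of the other sign without silvestrol library 1 (1.11) or CR-1-31-B library 3 (3.0), and exact permutation p = 0.75 when permuted within numbers. For named features no alternative turned a direction. Limma voom kept 75 of the 121 calls and DESeq2 116 of the 116 it gave an adjusted p. The causes were not tested. The depth of 858733 to 1804732 counts a rocaglate library limits features of a few CPM.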
